A study of Mus musculus with 23 samples.

Results

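Medullary thymic epithelial cells (mTECs) of wild-type (WT) C57BL/6 mice were compared between 4 and 5 weeks of age. All WT libraries of the series were taken, with the ages as the sample labels give them. These are 15 of the 23 libraries, 7 of 4 weeks and 8 of 5 weeks. The genes described are the autosomal genes with enough counts to be tested: 19480 of the 53402 gene identifiers in the table, 49132 of which are autosomal. The cells were sorted from the thymus as DAPI-negative, CD45-negative, EpCAM-positive and Ly51-negative, and were split by surface MHC class II into a high gate (mTEChi) and a low gate (mTEClo). The mTEClo libraries were 5 of 4 weeks (replicates 1 to 5, of which 4 male and 1 female) and 3 of 5 weeks (replicates 6 to 8, 1 male and 2 female). The mTEChi libraries were 2 of 4 weeks (replicates 1 and 2, both male) and 5 of 5 weeks (replicates 3 to 7, of which 3 male and 2 female). No library here carries an Aire deletion or a treatment. The Aire knockout libraries of the series, none of which is of 4 weeks, were not used.

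Medullary thymic epithelial cells display peptides of tissue-restricted self antigens to developing T cells, so that self-reactive cells are deleted or turned into regulatory cells. Mature mTECs carry much MHC class II and CD80, and the transcription factors AIRE and FEZF2 drive different sets of tissue-restricted genes in them. The low gate is mixed: it holds immature and CCL21-producing cells as well as post-AIRE and mimetic cells, which take on the gene programmes of peripheral cell types such as keratinocytes, tuft cells, microfold cells and ionocytes. In sorted bulk RNA, fewer cells of a type and less RNA per cell cannot be told apart.

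Library totals ranged from 1602125 to 3883437 counts. Of the 15 libraries, 4 had under 2000000 counts, and all 4 were of 4 weeks: mTEClo replicates 1 and 2 and mTEChi replicates 1 and 2. Both mTEChi libraries of 4 weeks are among them, so age and depth cannot be told apart in mTEChi. In mTEClo the 3 deeper libraries of 4 weeks (3749071 to 3883437 counts) exceeded the 3 libraries of 5 weeks (2998595 to 3369652 counts). Among these libraries too, age and depth cannot be told apart. The shallow mTEClo libraries did not sit with the deeper ones of the same age for many genes, and they are pointed out below where a result rests on them. Defining mTEC genes fitted the gates, with Aire at 762 to 933 CPM (counts scaled to a common library size) in mTEChi and 20 to 130 CPM in mTEClo. The labels do not say whether the libraries came from separate mice. If they did not, p-values measure only the spread between these samples, which may be technical.

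The libraries also differed with the base composition of the genes. In the mTEChi libraries of 4 weeks, genes whose longest transcript has under 40% GC were 0.17 higher (median, log2 scale) than the mTEChi mean, and genes above 60% GC were 0.37 and 0.38 lower. The 5 mTEChi libraries of 5 weeks lay on the other side, at -0.01 to -0.15 for AT-rich and 0.06 to 0.25 for GC-rich genes. The 3 deeper mTEClo libraries of 4 weeks showed the same slope as mTEChi of 4 weeks, from 0.10 to 0.14 in AT-rich genes down to -0.10 to -0.23 in GC-rich genes. The 2 shallow mTEClo libraries of 4 weeks sloped like the libraries of 5 weeks. Each comparison was therefore run a second time with the trend over GC content taken out of each library, which is called the GC correction here. That correction would also remove a change in the cells that follows GC content. The source of the slope was not tested.

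**Figure D1:**
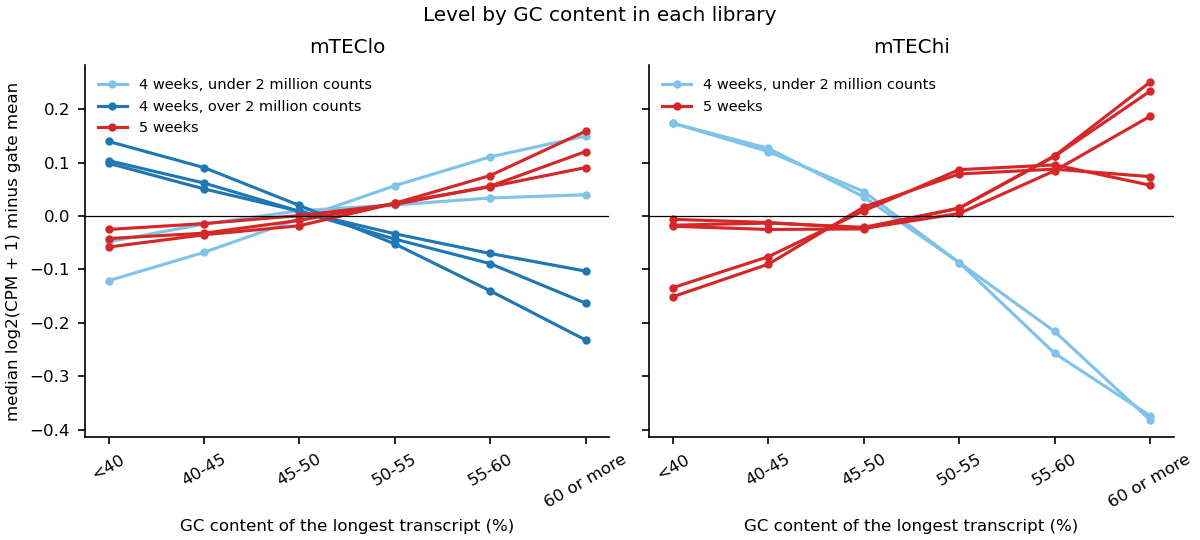
Median log2(CPM + 1) of genes relative to the mean of the gate (y axis), by GC content of the longest transcript in percent (x axis), with 1 line for each of the 15 libraries. Light blue lines are libraries of 4 weeks under 2000000 counts, dark blue lines deeper libraries of 4 weeks and red lines libraries of 5 weeks. In mTEChi both libraries of 4 weeks fall with GC content, while in mTEClo the shallow libraries of 4 weeks run with those of 5 weeks.

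With gate and sex in the fit, 616 autosomal genes were higher and 471 lower at 5 weeks over both gates (edgeR quasi-likelihood test, Benjamini-Hochberg adjusted p under 0.05), which is 3.16% and 2.42% of the 19480 tested. The genes called higher had a median GC content of 56.5% and those called lower 42.7%, against 49.0% of all genes tested. After the GC correction 65 genes (0.334%) were higher and 122 (0.626%) lower, with median GC contents of 48.6% and 49.1%. Of the calls without the correction, 58 of 616 higher and 86 of 471 lower were also made with it. The named genes that passed both ways and fell at 5 weeks include genes of ion transport, keratinocytes and sterol metabolism. Those that passed both ways and rose include the glucocorticoid-inducible factor Zbtb16, the cholesterol exporter Abcg1 and the secreted factor Angptl2. All log2 changes below are 5 minus 4 weeks, with the standard error (SE) of the fit.

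Cftr, the chloride channel of ionocytes and secretory epithelia (GRCm38, chr6:18170687-18322768), had the smallest adjusted p of the falling genes. In mTEClo it was at 70.8, 64.8, 58.2, 58.2 and 68.4 CPM at 4 weeks and at 42.6, 34.6 and 38.2 CPM at 5 weeks. The mTEChi libraries gave 108 and 118 CPM at 4 weeks and 58.6, 66.9, 68.8, 56.2 and 59.6 CPM at 5 weeks. The ages did not overlap in either gate, and the shallow and deep mTEClo libraries of 4 weeks lay together. The log2 change over both gates was -0.83 (SE 0.09, adjusted p = 5.4e-06), and -0.69 (SE 0.09, adjusted p = 0.00027) with GC correction. It fell too in the 6 deeper mTEClo libraries alone (-0.58, SE 0.12, adjusted p = 0.02) and in the 7 mTEChi libraries fitted alone (-0.75, SE 0.12, adjusted p = 0.00075), both with GC correction. Among the 14 ionocyte genes tested, Slc12a2 and Kcnj16 were also called lower without the correction, Cftr alone with it, and none higher. Of all genes tested, 2.42% were lower without the correction and 0.626% with it.

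Slc10a5, a member of the bile acid transporter family, was at 17.6, 17.5, 14.5, 13.1 and 23.1 CPM in mTEClo of 4 weeks and 8.70, 6.16 and 5.81 CPM at 5 weeks. In mTEChi it was at 33.8 and 36.4 CPM and then at 18.1, 19.3, 27.4, 22.9 and 23.5 CPM. The ages were again apart in both gates, with a log2 change of -1.03 (SE 0.17, adjusted p = 0.002) and of -0.91 (SE 0.18, adjusted p = 0.012) with GC correction. Cdh17, the liver-intestine cadherin, was at 41.0, 32.4, 28.8, 18.7 and 42.8 CPM in mTEClo of 4 weeks and 13.4, 14.4 and 16.5 CPM at 5 weeks. In mTEChi, Cdh17 had 218 and 247 CPM at 4 weeks and 160, 167, 148, 119 and 158 CPM at 5 weeks. Its log2 change was -0.89 (SE 0.15, adjusted p = 0.0057). The corrected Cdh17 value of -0.78 missed the threshold (adjusted p = 0.052), although Cdh17 was called lower with the correction in the deeper mTEClo libraries and in mTEChi alone. Adgrg7 (-1.0, adjusted p = 0.0043, and 0.065 with GC correction) and Ugt2b34, a glucuronosyltransferase (-1.30, adjusted p = 0.0078, and 0.081), followed the same course. Cdhr5, the brush-border protocadherin, was called both ways (-0.41, adjusted p = 0.039, and -0.61, adjusted p = 0.0037 with GC correction), but its call without correction was lost in 7 of the 15 fits that left out 1 library. Ckmt1, the mitochondrial creatine kinase, was called both ways too (-0.35, adjusted p = 0.017, and -0.51, adjusted p = 0.00095).

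Part of the keratinocyte list fell too. Of 28 tested, 7 were lower and none higher over both gates (Hrnr, Spink5, Rptn, Dsg1a, Krt10, Dsc1 and Grhl1), with a median log2 change of -0.29 against 0.03 for all genes. The share of all genes called lower was 2.42%, and 0.626% with GC correction. With GC correction Hrnr, Spink5 and Krt10 were lower, none was higher, and 25 of the 28 had a negative log2 change. Spink5, the epidermal protease inhibitor, was at 256, 279, 228, 217 and 268 CPM in mTEClo of 4 weeks and 128, 97.9 and 126 CPM at 5 weeks. In mTEChi, Spink5 was at 146 and 149 CPM at 4 weeks and at 110, 88.6, 121, 70.9 and 77 CPM at 5 weeks. No library of 5 weeks reached any of 4 weeks in its gate (-0.97, SE 0.14, adjusted p = 0.0025, and -0.84, SE 0.16, adjusted p = 0.035 with GC correction). Krt10, the keratin of suprabasal epidermis, had 156, 106, 106, 69.7 and 102 CPM in mTEClo of 4 weeks and 39.1, 48.3 and 62.7 CPM at 5 weeks. The mTEChi values of Krt10 were 101 and 90.4 CPM, then 59.3, 53.8, 59.1, 39.9 and 78.8 CPM. The Krt10 call (-0.95, SE 0.22, adjusted p = 0.031, and -1.07, adjusted p = 0.036 with GC correction) was lost when any of 6 libraries was left out. Hrnr, the cornified-envelope protein hornerin, changed by -0.62 (SE 0.11, adjusted p = 0.0025) and by -0.61 with GC correction (adjusted p = 0.0062). Psapl1, a prosaposin-like gene in no list, changed by -0.60 (adjusted p = 0.016) and by -0.73 with GC correction (adjusted p = 0.0039), though its ages overlapped in both gates. In the deeper mTEClo libraries with GC correction, 6 of 24 keratinocyte genes were lower (Dmkn, Flg, Dsc1, Spink5, Lypd3 and Krt10), and in mTEChi alone 3 of 28 (Rptn, Hrnr and Krt4). The shares of all genes called lower in these fits were 1.34% and 1.32%. The difference between the gates in the age effect was called for none of the 28.

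Over both gates, microfold genes gave 4 lower and none higher of 12 tested (Gp2, Tnfrsf11b, Ccl6 and Ccl9), and Gp2 and Tnfaip2 with GC correction. The share of all genes called higher was 3.16%, and 0.334% with the correction. The share called lower was 2.42%, and 0.626% with the correction. With it, the share called lower was 1.34% in deeper mTEClo and 1.32% in mTEChi alone. Gp2, the microfold receptor that takes up bacteria, was at 267, 261, 213, 192 and 243 CPM in mTEClo of 4 weeks and 160, 195 and 155 CPM at 5 weeks. The mTEChi values of Gp2 were 147 and 131 CPM at 4 weeks and 86.0, 66.3, 82.2, 95.5 and 78.4 CPM at 5 weeks. In mTEClo the highest library of 5 weeks (195) passed the lowest of 4 weeks (192), while in mTEChi the ages were apart (over both gates -0.56, SE 0.10, adjusted p = 0.0061, and -0.56, adjusted p = 0.025 with GC correction). Of 19 entero-hepato genes, 2 were higher, Cdx1 among them, and Hnf4g, Reg3g and Cdhr5 lower. With GC correction Cdhr5 was lower and none higher, at a median of -0.45. Of 28 intestine and stomach genes, Cdx1 was higher and Cdh17 and Reg3g lower over both gates, and none with the correction. With it, Cdh17 was lower in deeper mTEClo (1 of 15), and Reg3g, Reg3b, Cdh17, Sis and Apoa4 in mTEChi alone (5 of 28). Of 22 tuft genes, Fyb was lower over both gates and none with GC correction, where all 22 had negative values (median -0.24). With the correction Gfi1b and Tas1r3 were lower in deeper mTEClo (2 of 22), while in mTEChi alone none of 20 was called, with 10 positive and 10 negative values. Ciliated genes gave 2 higher (Rfx2 and Myb) and 1 lower (Cfap43) of 21, and Myb alone with GC correction. Muscle genes gave 2 higher (Myh3 and Myog) of 25, and none with the correction. Neuroendocrine genes gave 1 lower (Scg5) of 17, and none with it. None of the 19 lung and secretory genes was called over both gates with or without the correction, and Bpifa1 and Lyz1 were lower in mTEChi alone with it.

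The plot of levels by gate and age shows the genes that passed with and without GC correction.

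**Figure D2:**
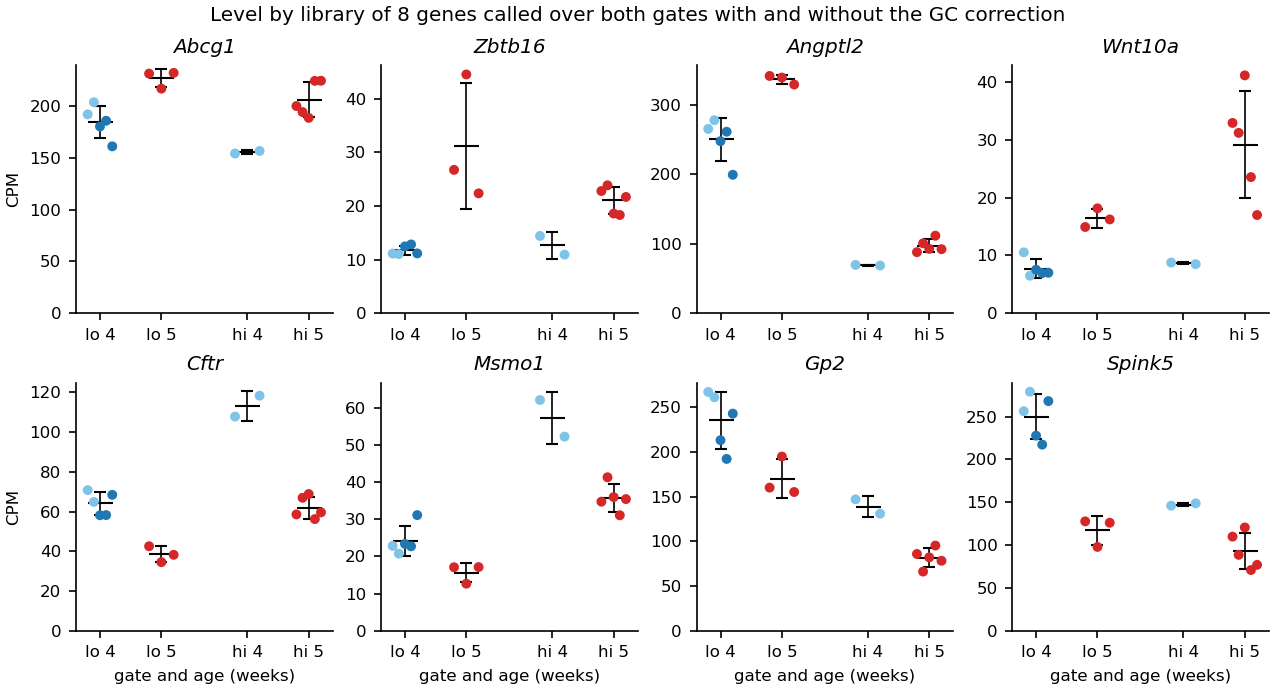
CPM (y axis, from 0) of genes called over both gates, by gate and age in weeks (x axis). Each point is a library, light blue for 4 weeks under 2000000 counts, dark blue for deeper libraries of 4 weeks and red for 5 weeks, and bars are the mean ± SD of the group. Cftr falls and Zbtb16 and Abcg1 rise in both gates with no overlap of the ages.

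Some genes of sterol synthesis fell as well. Of 26 cholesterol and fatty acid genes tested, 8 were lower, among them Msmo1, Hmgcs1, Stard4, Acaca, Cyp51 and Sqle, and 1 higher (Srebf1), at a median of -0.18. Of all genes tested, 2.42% were lower and 3.16% higher. Leaving out 1 library ended the call of Sqle in 12 of 15 fits, of Cyp51 in 7, of Stard4 in 2 and of Hmgcs1 in 1. With GC correction 2 of the 26 were lower, Msmo1 among them, against 0.626% of all genes. None of the 26 was higher then, and 21 of 26 values were negative. Msmo1, a methylsterol monooxygenase of cholesterol synthesis, was at 22.8, 20.8, 23.4, 22.7 and 31.1 CPM in mTEClo of 4 weeks and 17.1, 12.7 and 17.1 CPM at 5 weeks. In mTEChi, Msmo1 had 62.0 and 52.2 CPM and then 34.7, 41.3, 35.9, 31.1 and 35.4 CPM. Its ages did not overlap in either gate (-0.75, SE 0.12, adjusted p = 0.0012, and -0.66, SE 0.11, adjusted p = 0.0062 with GC correction). Abcg1, which exports cholesterol from cells, went the other way, as given next.

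Abcg1 was at 192, 204, 180, 186 and 161 CPM in mTEClo of 4 weeks and 231, 217 and 232 CPM at 5 weeks. The mTEChi libraries had 154 and 157 CPM of Abcg1, then 200, 194, 188, 224 and 224 CPM. The change was small and free of overlap in both gates (0.42, SE 0.06, adjusted p = 0.0007, and 0.32, SE 0.05, adjusted p = 0.0039 with GC correction). Angptl2, a secreted angiopoietin-like protein, was at 265, 278, 247, 261 and 199 CPM in mTEClo of 4 weeks and 341, 339 and 329 CPM at 5 weeks. In mTEChi, Angptl2 was at 69.5 and 68.6 CPM and then at 87.8, 101, 92.6, 112 and 92.1 CPM. All libraries of 5 weeks were above those of 4 weeks in their gate (0.52, SE 0.07, adjusted p = 0.0007, and 0.40, SE 0.07, adjusted p = 0.0062 with GC correction). Ggt5, a gamma-glutamyltransferase that acts on leukotrienes, rose by 0.43 (SE 0.08, adjusted p = 0.0025, and 0.37, adjusted p = 0.0069 with GC correction). Chst2, a sulfotransferase that modifies sugars, rose by 0.48 (SE 0.09, adjusted p = 0.0025, and 0.50, adjusted p = 0.0037). Serpinh1, the collagen chaperone, rose by 0.49 (adjusted p = 0.0025, and 0.35, adjusted p = 0.016). Mycl, a MYC family factor, rose by 0.73 (SE 0.11, adjusted p = 0.0007, and 0.58, adjusted p = 0.013).

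Zbtb16, a zinc finger factor that glucocorticoids induce in many cells (GRCm38, chr9:48654297-48836222), had a larger rise. It was at 11.1, 11, 12.5, 12.8 and 11.2 CPM in mTEClo of 4 weeks and 26.7, 44.5 and 22.3 CPM at 5 weeks. In mTEChi, Zbtb16 had 14.4 and 10.9 CPM at 4 weeks and 22.8, 23.8, 18.6, 18.3 and 21.7 CPM at 5 weeks. The ages were apart in both gates, with the spread in mTEClo of 5 weeks the widest of the 4 groups (1.15, SE 0.18, adjusted p = 0.0013, and 1.05, SE 0.19, adjusted p = 0.0069 with GC correction). Of 13 glucocorticoid response genes tested, Zbtb16, Fkbp5, Ddit4 and Mt1 were higher and Errfi1 lower, and with the correction Zbtb16 remained higher and Errfi1 lower. Of all genes tested, 3.16% were higher and 2.42% lower, and 0.334% and 0.626% with the correction. Wnt10a, a WNT ligand of skin and hair follicle, was at 10.5, 6.49, 7.53, 6.95 and 7 CPM in mTEClo of 4 weeks and 14.9, 18.1 and 16.2 CPM at 5 weeks. In mTEChi, Wnt10a was at 8.77 and 8.5 CPM and then at 32.9, 31.2, 41.1, 23.5 and 17.0 CPM. The ages of Wnt10a did not overlap (1.19, SE 0.20, adjusted p = 0.002, and 0.81, SE 0.17, adjusted p = 0.022 with GC correction). Nfkbid, an atypical IkB protein, rose by 0.93 (SE 0.17, adjusted p = 0.0029) and by 0.71 with GC correction (adjusted p = 0.035).

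By size, the 12 largest rises without overlap in either gate, among genes with a mean of at least 5 CPM, were Col1a1, Wnt10a, Zbtb16, Ly6h, Nfkbid, March9, Cdt1, Rasgef1a, Mafa, Sdf2l1, Rps4l and Arhgap33. The log2 changes of those 12 ran from 1.41 for Col1a1 to 0.78 for Arhgap33. Wnt10a, Zbtb16, Nfkbid and Sdf2l1 passed with GC correction as well. Col1a1, the fibroblast collagen chain, was at 1.30 to 3.51 CPM in mTEClo of 4 weeks and 4.35, 8.90 and 14.4 CPM at 5 weeks. In mTEChi, Col1a1 was at 51.4 and 66.8 CPM at 4 weeks and at 152, 150, 114, 103 and 185 CPM at 5 weeks. It rose by 1.41 (SE 0.27, adjusted p = 0.013), while the corrected change of 1.05 missed the threshold (adjusted p = 0.12). The 12 largest falls by the same rule were Ugt2b34, Slc10a5, Adgrg7, Spink5, Krt10, Cdh17, Cftr, Akr1c13, Wee2, Skint9, Naip5 and Macc1, from -1.30 to -0.76. Of these, Slc10a5, Spink5, Krt10, Cftr, Akr1c13, Wee2 and Macc1 passed with the correction. In all, 234 higher and 156 lower genes met that rule, of which 32 and 48 were also called with GC correction. The genes with the smallest p and no overlap in either gate included Pcbp4, Mob3a and Carmil3 among those that rose, and Tank, Ahcyl2, Asah2, Myo6, AW112010, Vps13a and Gjc3 among those that fell. Ahcyl2 fell from 1370 and 1389 CPM to between 878 and 1011 CPM in mTEChi, and from 284 to 408 CPM to 223 to 266 CPM in mTEClo (-0.52, adjusted p = 0.0007, and -0.50, adjusted p = 0.0037 with GC correction). Myo6, the minus-end directed myosin of microvilli, changed by -0.40 (SE 0.06, adjusted p = 0.00072) and by -0.31 with GC correction (adjusted p = 0.0062).

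Among the genes of mTEC states and function given in this paragraph, Fezf2 alone was called over both gates, and not with GC correction. Aire was at 83.7, 83.7, 35.6, 54.5 and 20 CPM in mTEClo of 4 weeks, at 130, 81.8 and 74.7 CPM in mTEClo of 5 weeks, at 834 and 831 CPM in mTEChi of 4 weeks and at 933, 828, 844, 767 and 762 CPM in mTEChi of 5 weeks. The shallow mTEClo libraries of 4 weeks had Aire levels within the range of 5 weeks, and the deeper ones were below it. Over both gates Aire was not called (0.59, SE 0.28, adjusted p = 0.26). Fezf2 was at 135, 146, 110, 111 and 88.9 CPM and then 138, 143 and 131 CPM in mTEClo, and at 251 and 239 CPM and then 306, 278, 306, 287 and 278 CPM in mTEChi. It rose by 0.30 (SE 0.08, adjusted p = 0.029, lost in 4 of 15 fits that left out 1 library), and the corrected change was 0.12 (adjusted p = 0.46). Cd80, the T cell costimulator, was at 17.1 to 28.7 CPM and then 14.4 to 25.8 CPM in mTEClo, and at 217 and 220 CPM and then 187 to 216 CPM in mTEChi (-0.11, SE 0.11, adjusted p = 0.61). Ccl21a, the chemokine that draws thymocytes into the medulla, was at 24.1 to 41.5 CPM and then 27.3 to 30.1 CPM in mTEClo, and at 10.0 and 7.28 CPM and then 4.70 to 9.47 CPM in mTEChi (-0.04, SE 0.18, adjusted p = 0.93). Reads of Ccl21a may be shared with near-identical gene copies. Krt14, a keratin of basal mTECs, was at 259 to 473 CPM and then 320 to 379 CPM in mTEClo and at 94.6 to 111 CPM in all mTEChi libraries (0.07, SE 0.13, adjusted p = 0.82). Mki67, the proliferation marker, was at 72.6 to 146 CPM and then 108 to 114 CPM in mTEClo, and at 320 and 326 CPM and then 171 to 298 CPM in mTEChi (-0.28, SE 0.20, adjusted p = 0.47). Ins2, an insulin gene under AIRE control, was at 0 to 1.17 CPM in mTEClo and at 4.39 to 16.0 CPM in mTEChi (0.46, SE 0.39, adjusted p = 0.53).

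Of 17 Aire-dependent antigens tested, none was called over both gates with or without GC correction, while Bpifa1, Reg3b and Apoa4 were lower in mTEChi alone with it. Of all genes tested over both gates, 3.16% were higher and 2.42% lower, and 0.334% and 0.626% with GC correction. In mTEChi alone with the correction, 1.32% of all genes were lower. Of 10 Fezf2-dependent antigens, Fabp9 and Krt10 were lower, and Krt10 with the correction. None of the tested antigens of liver (25, except Cyp1a2, higher without correction), pancreas (16), salivary and lacrimal gland and milk (13), prostate and seminal vesicle (8), neurons and glia (18), retina and lens (12) or testis and sperm (8) was called over both gates, and the counts that follow are over both gates as well. The RANK, CD40 and NF-kB genes gave 3 higher (Map3k14, Traf2 and Rela) and 1 lower (Tnfrsf11b) of 21, and none with GC correction. Of 24 Aire partner and chromatin genes, Hipk2 and Daxx were higher and Ccnt1 and Top2b lower, and none was called with the correction. Circadian clock genes gave 3 higher (Per2, Npas2 and Tef) and 1 lower (Rora) of 19, and growth factor, Wnt and Notch genes 2 higher (Wnt4 and Notch1) of 25, again none with it. Sex steroid genes gave 2 higher (Fkbp5 and Fkbp4) and 1 lower (Tmprss2) of 13, and Tmprss2 with GC correction. Interferon-stimulated genes gave Oas3 and Oasl1 higher and Mx2 lower of 42, and Mx2 with the correction. Cdt1, the replication licensing factor, was the 1 cell cycle gene of 33 that was called, and it did not pass with GC correction. Heat shock genes gave 2 lower of 14 (Dnaja1 and Chordc1), and 3 lower with GC correction (Hspa1a, Dnajb1 and Dnaja1). Glycolysis and hypoxia genes gave none of 21, and Eno1 and Hk1 lower with it. Rps15 was lower with the correction among 26 ribosomal protein genes, and Jund and Gadd45b were higher without it among 25 immediate early genes. Chemokine and cytokine genes (Ccl25 lower, of 19) and basal mTEClo genes (Lamb3 higher, of 18) gave no corrected call, and none of 22 oxidative phosphorylation genes, 8 replication-dependent histones, 17 MHC class I genes or 13 housekeeping genes was called over both gates.

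**Figure D3:**
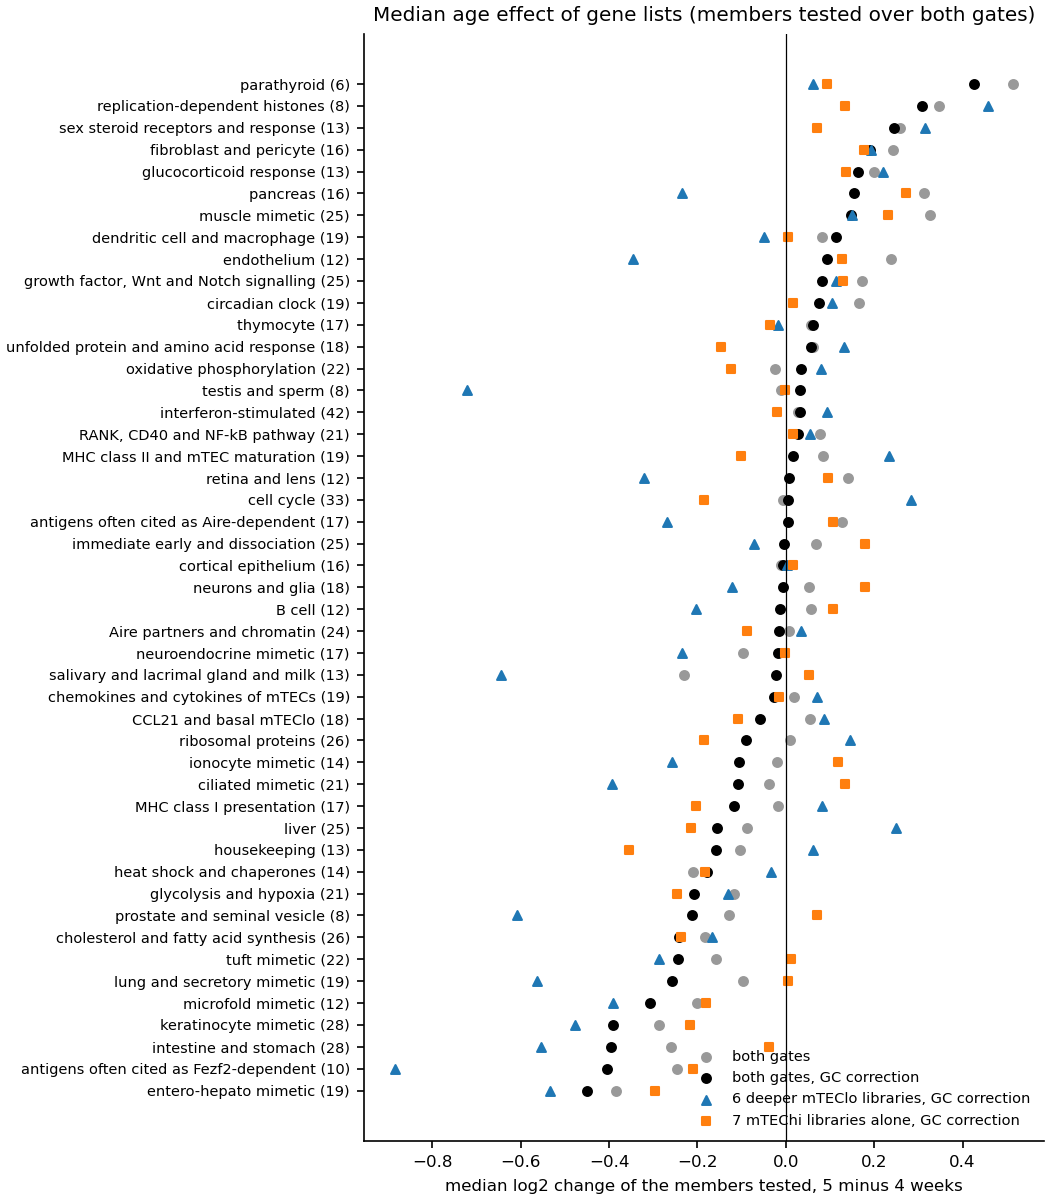
Median log2 change of 5 minus 4 weeks (x axis) of the tested members of each gene list (y axis, number of members in brackets). Grey and black circles are both gates without and with GC correction, triangles the 6 deeper mTEClo libraries and squares the 7 mTEChi libraries alone, both with GC correction. Keratinocyte, entero-hepato and cholesterol lists lie below 0 in all 4, as do microfold, Fezf2-dependent and intestine lists, among others. The MHC class II, MHC class I and unfolded protein lists lie above 0 in the deeper mTEClo libraries and below 0 in mTEChi alone. Other lists do so too, among them cell cycle, liver and basal mTEClo.

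Within the gates the counts depended on which libraries entered. In the fit with a term for each of the 4 groups, mTEClo gave 83 higher (0.426%) and 95 lower (0.488%) genes, and 44 (0.226%) and 88 (0.452%) with GC correction. Camp, S100a9 and Itgb2 among the higher genes and Cftr and Tank among the lower genes were among those with the smallest p. In mTEChi 796 genes (4.09%) were higher and 538 (2.76%) lower, and 53 (0.272%) and 120 (0.616%) with the correction. Col5a3, a collagen chain, Ptprs, a receptor phosphatase, and Nfix, a nuclear factor I protein, led the higher genes, and the sialomucin Cd164, Cftr and Vps13a led the lower ones. Col5a3 rose from a mean of 43.1 to 96.2 CPM in mTEChi (1.16, SE 0.15, adjusted p = 0.00018, and 0.64, adjusted p = 0.033 with GC correction). Nfix rose from 59.8 to 122 CPM (1.04, SE 0.15, adjusted p = 0.0007, and 0.69, adjusted p = 0.0048 with GC correction). The mTEChi count rests on 2 libraries of 4 weeks: without replicate 1 it was 41 genes and without replicate 2 it was 84.

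Among the 6 deeper mTEClo libraries, 3 of each age, 730 of 15833 genes (4.61%) were higher and 480 (3.03%) lower. GC correction left 226 (1.43%) higher and 212 (1.34%) lower, of which 195 and 184 were called without it too. This comparison depends on single libraries of 5 weeks, with corrected counts of 73 without replicate 7, 87 without replicate 8 and 1802 without replicate 6. The totals of the ages do not overlap in it either. With library total as a covariate and no GC correction, 2 genes were called in place of 1210. The rises without overlap were led in size by Ngp, Camp, S100a9, S100a8 and Chil3, all genes of granulocytes, and then by Col1a1, Ccdc188, Aire, Tlr9 and Wnt10b. Ngp and Camp had 1 count each over the 3 deeper libraries of 4 weeks. Among the largest falls were those of Krt84, Nek5, Cd109, Elmod1, Fam216b, Slc16a1, Plxna4os2, Cyp2d12 and Slc10a5. Krt84, a hair keratin, fell from a mean of 8.81 to 2.81 CPM (-1.84, SE 0.35, adjusted p = 0.0057). Slc16a1, a lactate transporter, fell from 21.0 to 8.17 CPM (-1.50, SE 0.23, adjusted p = 0.0019). Cr2, the complement receptor of B cells, was named after its values were seen. It was at 100, 89.2 and 106 CPM in the deeper libraries of 4 weeks and at 40.7, 46.2 and 46.8 CPM at 5 weeks (-1.20, SE 0.09, adjusted p = 7e-06, and -1.10, adjusted p = 4.8e-05 with GC correction). The 2 shallow libraries of 4 weeks had 33.4 and 48.0 CPM of Cr2, around the level of 5 weeks, and over both gates Cr2 was not called (-0.77, adjusted p = 0.072).

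The 7 mTEChi libraries fitted alone with GC correction gave 49 higher (0.272%) and 238 lower (1.32%) of 18020 genes. Without the correction they gave 661 higher (3.67%) and 793 lower (4.4%). They share no library with the deeper mTEClo comparison. Over the 14776 genes tested in both and without the correction, 174 genes were higher in both (24.0% of the 725 in deeper mTEClo and 29.3% of the 593 in mTEChi) and 104 lower in both (22.1% of 470 and 13.4% of 777), while 17 were higher in deeper mTEClo and lower in mTEChi. Of the calls with GC correction, 10 of the 208 genes lower in deeper mTEClo (4.81%) and of the 235 lower in mTEChi (4.26%) were lower in both: Adgrg7, Cdh17, Cftr, Ckmt1, Gp2, Lrba, Msmo1, Myo1e, Nrp2 and Swap70. None of the 208 was called higher in mTEChi. Of the rising genes, Ggt5, Nfix and Tulp3 were shared, 1.34% of 224 and 7.69% of 39. A further 12 were higher in deeper mTEClo and lower in mTEChi, among them Actb, Actn3, Aire, App, B2m, Cd74, H2-Aa, Hspa5, Malat1, Ptprq and Srgn.

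**Figure D4:**
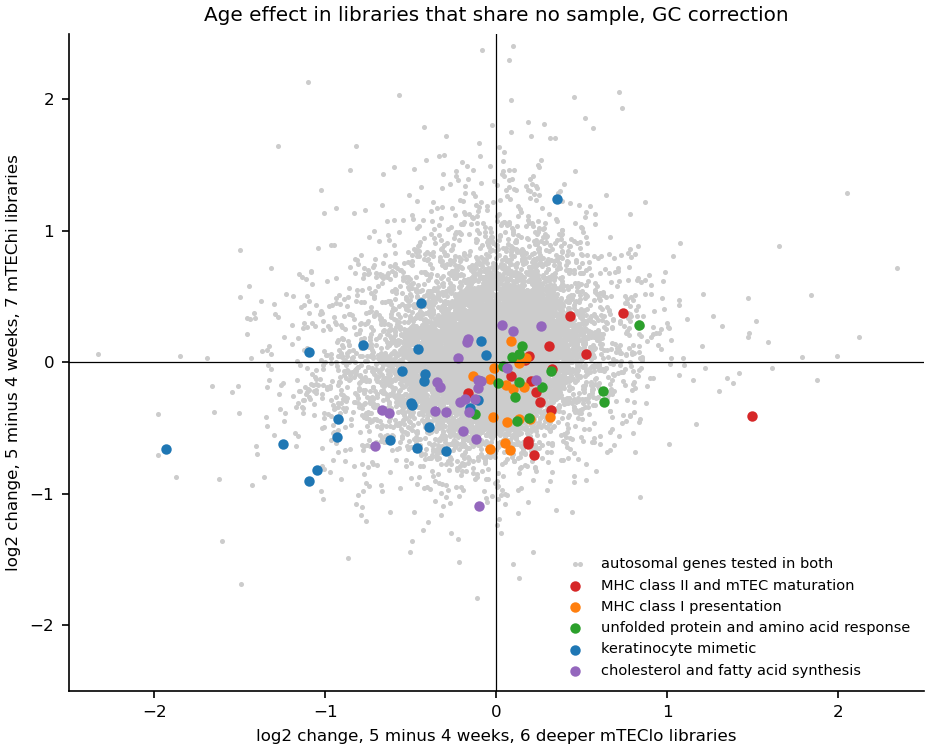
Log2 change of 5 minus 4 weeks with GC correction in the 6 deeper mTEClo libraries (x axis) against the 7 mTEChi libraries (y axis), which share no library. Grey points are the 14776 autosomal genes tested in both, of which 12 lie outside the axes, and coloured points are members of the lists named in the key. Members of the MHC class II list such as Aire and Cd74 lie to the right of 0 and below it.

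Genes of MHC class II and mTEC maturation were called in opposite directions in these separate fits, but not in the joint fit of all 15 libraries. In the deeper mTEClo libraries with GC correction 6 of 17 were higher, against 1.43% of all genes, and none lower: H2-Aa, Aire, Ciita, Cd40, Cd74 and Fezf2. In mTEChi alone 5 of 19 were lower, against 1.32% of all genes, and none higher: Cd74, H2-Eb1, H2-Ab1, Aire and H2-Aa. For mTEChi in the fit with all 4 groups, Ciita was higher and none lower, and none of 19 was called with GC correction, where H2-Aa changed by -0.33 (adjusted p = 0.53), Cd74 by -0.67 (adjusted p = 0.20) and Aire by -0.24 (adjusted p = 0.81). Over both gates 3 were higher (Ciita, H2-Oa and Fezf2) and 1 lower (Ctss), against 3.16% and 2.42% of all genes, and none with GC correction. H2-Aa, an MHC class II alpha chain, was at 449, 492, 305, 302 and 280 CPM in mTEClo of 4 weeks and at 351, 367 and 359 CPM at 5 weeks. In mTEChi, H2-Aa was at 817 and 821 CPM and then at 619, 557, 554, 586 and 623 CPM. The shallow mTEClo libraries of 4 weeks lay above all of 5 weeks and the deeper ones below them, so the direction in mTEClo turned with depth. The corrected H2-Aa change was 0.32 (SE 0.05, adjusted p = 0.0095) in deeper mTEClo and -0.36 (SE 0.06, adjusted p = 0.0013) in mTEChi. Aire changed by 1.50 (SE 0.18, adjusted p = 0.011) and by -0.41 (SE 0.07, adjusted p = 0.0013) in the same fits. Without the correction Aire in mTEChi changed by -0.06 (adjusted p = 0.72), with overlapping ages. Cd74, the invariant chain, changed by 0.22 (adjusted p = 0.036) and by -0.71 (SE 0.06, adjusted p = 2e-07). The MHC class I genes H2-K1, H2-D1, Psme1, B2m, Calr, H2-T23 and Pdia3 were lower in mTEChi alone (7 of 17), as were 6 of 13 housekeeping genes (Actb, B2m, Eef1a1, Polr2a and Rplp0 among them) and the cell cycle genes Top2a, Mki67 and Kif23 (3 of 33). The corrected mTEChi contrast of the 4-group fit called 2 of these 17 MHC class I genes (Psme1 and Calr), 3 of 13 housekeeping genes and no cell cycle gene, all lower. Of all genes, 0.616% were lower in that contrast. The 103 genes above 500 CPM had a median change of -0.18 in mTEChi alone and of 0.05 in deeper mTEClo, both with GC correction. The part of level and depth in these opposite directions was not tested. The difference between the gates in the age effect, tested over all 15 libraries, was called for none of the 19 MHC class II and maturation genes.

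**Figure D5:**
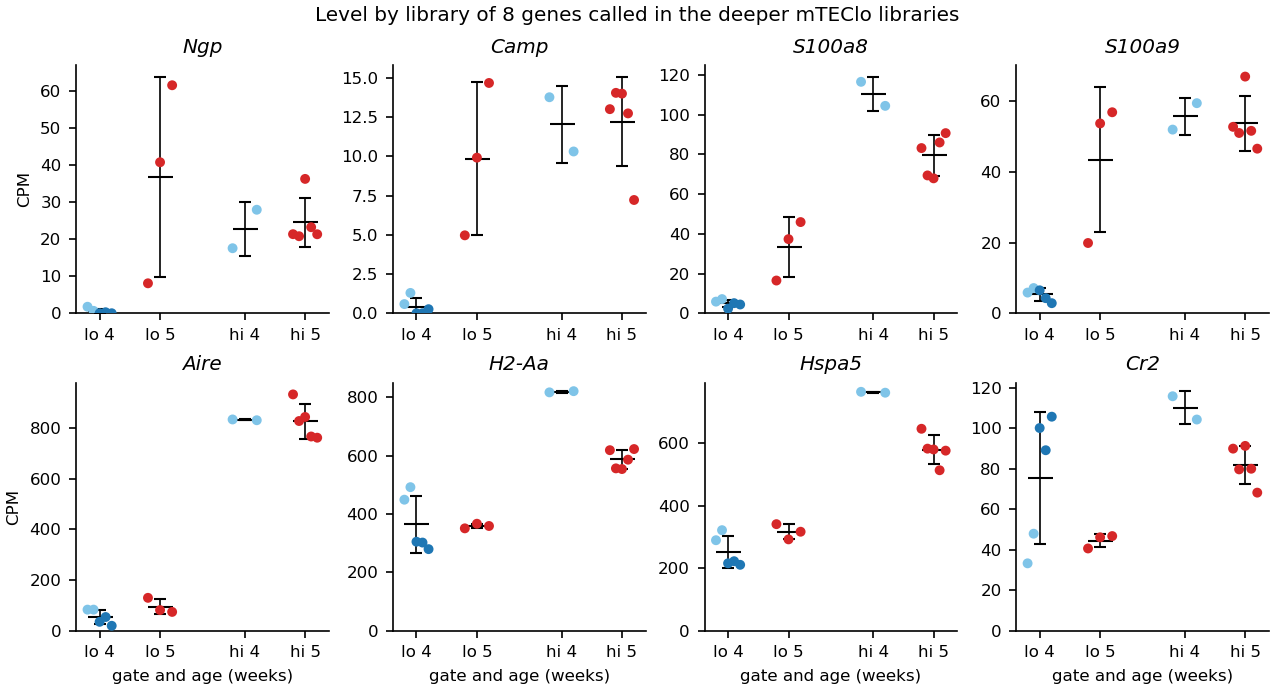
CPM (y axis, from 0) of genes whose age effect depended on the gate or on the libraries, by gate and age in weeks (x axis). Each point is a library, light blue for 4 weeks under 2000000 counts, dark blue for deeper libraries of 4 weeks and red for 5 weeks, and bars are the mean ± SD of the group. For H2-Aa the light blue mTEClo points lie above the red ones and the dark blue points below them, and for Aire the light blue points lie among the red ones.

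Among listed chaperones of the endoplasmic reticulum, Hspa5 alone was called in opposite directions in deeper mTEClo and mTEChi alone with GC correction. Stress in this compartment activates ATF6 and other factors, which bind the ER stress element of chaperone promoters. Shown are the 150 bases before the start site of the 5 genes of this list that were called with GC correction over both gates, in deeper mTEClo or in mTEChi alone and had a promoter in the table (Manf, also called, was not matched), with any match to the element, searched as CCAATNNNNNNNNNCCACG on both strands, in capitals (RefSeq, GRCm38.p6, 5′ to 3′ on the strand of the gene). They are Hspa5 (chr2:34771940-34772089, plus strand), Hsp90b1 (chr10:86705445-86705594, minus strand), Creld2 (chr15:88819496-88819645, plus strand), Pdia4 (chr6:47813513-47813662, minus strand) and Sdf2l1 (chr16:17132384-17132533, minus strand).
Hspa5: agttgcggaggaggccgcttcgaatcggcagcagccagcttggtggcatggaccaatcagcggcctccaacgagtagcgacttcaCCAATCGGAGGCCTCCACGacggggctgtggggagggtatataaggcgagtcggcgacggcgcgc
Hsp90b1: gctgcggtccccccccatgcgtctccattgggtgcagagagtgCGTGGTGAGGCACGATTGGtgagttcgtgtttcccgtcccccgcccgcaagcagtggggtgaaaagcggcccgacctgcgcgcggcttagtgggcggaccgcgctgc
Creld2: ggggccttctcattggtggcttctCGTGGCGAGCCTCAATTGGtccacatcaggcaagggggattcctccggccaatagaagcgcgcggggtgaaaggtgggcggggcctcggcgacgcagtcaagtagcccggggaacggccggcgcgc
Pdia4: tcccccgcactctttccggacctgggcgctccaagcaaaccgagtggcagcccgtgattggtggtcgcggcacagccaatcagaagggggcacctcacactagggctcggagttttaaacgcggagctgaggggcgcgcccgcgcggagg
Sdf2l1: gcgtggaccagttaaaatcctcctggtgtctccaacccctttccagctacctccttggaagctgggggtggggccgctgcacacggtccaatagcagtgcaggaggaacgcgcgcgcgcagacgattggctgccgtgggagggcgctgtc
In the windows of 250 bases before to 50 after the start, Hspa5, Hsp90b1, Creld2 and Pdia6 held a match, which is 4 of the 16 of 18 listed genes that had a promoter in the table, against 39 of 32851 promoters (0.119%). These letters were not in the Pdia4 and Sdf2l1 windows, nor in those of Xbp1, Chac1 and Dnajb9, which were called over both gates without the correction. The list was written as genes of this response, so the share with a match does not bear on age.

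Hspa5, the main ER chaperone (BiP), was at 290, 322, 216, 222 and 211 CPM in mTEClo of 4 weeks and 341, 292 and 317 CPM at 5 weeks. In mTEChi, Hspa5 was at 764 and 761 CPM and then at 646, 582, 580, 513 and 576 CPM. The deeper mTEClo libraries of 4 weeks were below all of 5 weeks, the shallow ones were within or just below their range, and mTEChi went down. The corrected change was 0.63 (SE 0.06, adjusted p = 6.4e-05) in deeper mTEClo and -0.30 (SE 0.07, adjusted p = 0.045) in mTEChi alone. In the 4-group fit with correction the Hspa5 change in mTEChi was -0.25 (adjusted p = 0.56), and the difference between the gates over all libraries was -0.75 (SE 0.17, adjusted p = 0.11, without correction). Hsp90b1 and Creld2, both of the ER lumen, were also lower in mTEChi alone (-0.42, SE 0.07, adjusted p = 0.0017, and -0.45, SE 0.09, adjusted p = 0.0093). Manf, a secreted ER stress protein, and the disulfide isomerase Pdia4 were higher in deeper mTEClo (0.62, adjusted p = 0.011, and 0.32, adjusted p = 0.014). Sdf2l1, a cofactor of BiP, rose in both gates, from 17.6, 8.43, 10.1, 14.7 and 13.2 CPM to 26.4, 26.0 and 22.9 CPM in mTEClo. The mTEChi libraries had 47.0 and 44.9 CPM of Sdf2l1 at 4 weeks and 79.5, 66.6, 81.0, 68.3 and 62.9 CPM at 5 weeks. No ages overlapped (0.79, SE 0.13, adjusted p = 0.0019, and 0.57, SE 0.13, adjusted p = 0.035 with GC correction). Of 18 genes of this response tested over both gates, Sdf2l1, Chac1 and Xbp1 were higher and Dnajb9 lower, and Sdf2l1 alone was called with the correction. Of all genes tested, 3.16% were higher and 2.42% lower, and 0.334% and 0.626% with the correction.

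The age effect of the gates differed for 4 of 19480 genes, 1 higher (0.00513%) and 3 lower (0.0154%) in mTEChi than in mTEClo. The 1 higher is an unnamed gene model, 5330417C22Rik (0.81, SE 0.15, adjusted p = 0.041), and the 3 lower are Camp, S100a8 and S100a9, antimicrobial genes of neutrophils. Camp, the cathelicidin, was at 0.585, 1.30, 0, 0 and 0.259 CPM in mTEClo of 4 weeks and 4.97, 9.93 and 14.7 CPM at 5 weeks. In mTEChi, Camp was at 13.8 and 10.3 CPM and then at 13.0, 14.1, 14, 12.8 and 7.22 CPM. It rose in mTEClo (4.70, SE 0.54, adjusted p = 3.3e-05) and the ages overlapped in mTEChi, with a difference between the gates of -4.94 (SE 0.67, adjusted p = 0.00098). Camp had 1 count over the 3 deeper mTEClo libraries of 4 weeks, so the size of both Camp values rests on very few counts. S100a8, a calprotectin subunit, was at 5.85, 7.13, 2.34, 5.08 and 4.41 CPM in mTEClo of 4 weeks and 16.5, 37.3 and 45.9 CPM at 5 weeks. In mTEChi, S100a8 had 116 and 104 CPM at 4 weeks and 67.9 to 90.7 CPM at 5 weeks. The mTEClo change was 2.84 (SE 0.38, adjusted p = 0.0055) and the difference between the gates -3.34 (SE 0.44, adjusted p = 0.033). S100a9, its partner, was at 2.85 to 7.13 CPM and then 19.9, 53.7 and 56.9 CPM in mTEClo, and at 52.0 and 59.5 CPM and then 46.6 to 67.0 CPM in mTEChi. It rose by 2.88 in mTEClo (SE 0.32, adjusted p = 0.0011), and the difference between the gates was -3.12 (SE 0.41, adjusted p = 0.018). All 3 differences were called with GC correction too. Without mTEChi replicate 1 of 4 weeks none of the 3 was called. The S100a9 difference was also lost without mTEChi replicate 2 or 6, and that of S100a8 without either of these or mTEClo replicate 5 or 7. Ngp, neutrophilic granule protein, had 1 count over the 3 deeper mTEClo libraries of 4 weeks, so no fold is given there. It was at 8.08, 40.7 and 61.5 CPM in mTEClo of 5 weeks and at 17.5 to 36.2 CPM in all mTEChi libraries. Srf, Adgrb2 and Atg2a had the smallest p of named genes in the other direction and were not called (adjusted p = 0.062 each).

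A granulocyte list was chosen after the values were seen, so its counts add no independent evidence. Of its 21 genes tested, 5 were higher and none lower in mTEClo at a median of 2.06, and none was called in mTEChi in the same fit. Over all genes tested, 0.426% were higher and 0.488% lower in mTEClo. In the 7 mTEChi libraries fitted alone with GC correction, Mpo was higher and no other of 19 granulocyte genes. The summed level of the list was 348 to 521 CPM in mTEClo of 4 weeks, 577 to 656 CPM in mTEClo of 5 weeks, 1342 to 1350 CPM in mTEChi of 4 weeks and 1141 to 1300 CPM in mTEChi of 5 weeks. Cebpe, Ctsg, Fcnb, Prtn3 and Retnlg were at 0 in all mTEClo libraries of 4 weeks. The mTEClo library of 5 weeks with the lowest Camp, S100a8, S100a9 and Ngp was replicate 6. The part of other cells in this rise was not tested.

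Marker genes of the other cell types that a gate could hold were compared too, with calls from the fit over both gates. That fit called 3.16% of all genes tested higher and 2.42% lower, and 0.334% and 0.626% with GC correction. Summed thymocyte markers were at 95.9 to 111 CPM and then 103 to 113 CPM in mTEClo, and at 303 to 309 CPM and then 322 to 358 CPM in mTEChi, with none of 17 called. B cell markers, Cr2 among them, were at 142 to 213 CPM and then 137 to 156 CPM in mTEClo, and at 346 to 362 CPM and then 332 to 394 CPM in mTEChi (none of 12 called). Dendritic cell and macrophage markers were at 172 to 204 CPM and then 200 to 212 CPM in mTEClo, and at 669 to 729 CPM and then 644 to 705 CPM in mTEChi. Of their 19 tested members Itgax was higher and Mrc1 lower, and none with GC correction. Of 16 fibroblast markers, Col1a1, Sparc and Col6a2 were higher, none with the correction, at summed levels of 2392 to 3304 CPM and then 2921 to 3219 CPM in mTEClo and of 1223 to 1251 CPM and then 1237 to 1322 CPM in mTEChi. Of 16 cortical epithelium markers, Pax1 and Foxn1 were higher and Ccl25 lower, and none with the correction. Of 6 parathyroid genes, none was called with it. Their summed level was 198.0 to 218.2 CPM and then 184.2 to 336.5 CPM in mTEClo, and 171.1 to 183.6 CPM and then 188.8 to 231.9 CPM in mTEChi. None of 12 endothelial and 2 red blood cell genes was called. Cd3d in thymocyte markers and Ms4a1 in B cell markers were at 0 in mTEClo of 5 weeks, Hbb-bt was at 0 in mTEClo of both ages, and Cldn5 in endothelial markers was at 0 there too. The part of these cells in the results above was not tested.

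The libraries were also compared by a single value each. Thinned to 1500000 counts, mTEClo libraries had 22630 autosomal genes with a count on average at 4 weeks and 22670 at 5 weeks, and mTEChi libraries 26760 and 27420. Averaged within the gates, 349 more genes were detected at 5 weeks (two-sided exact permutation test within gates, p = 0.0383, 1176 arrangements). The difference was 39.2 in mTEClo (exact p = 0.857) and 659 in mTEChi (exact p = 0.0476, the smallest that the 21 arrangements allow), and 3.67 in the deeper mTEClo libraries. Mitochondrially encoded genes took 0.336% of the counts at 4 weeks and 0.288% at 5 weeks in mTEClo, and 0.518% and 0.2995% in mTEChi. The difference within gates was -0.133 percentage points (exact permutation p = 0.017), while the deeper mTEClo libraries differed by 0.0213 points the other way (exact p = 0.1, the smallest possible for 3 against 3). The 100 most counted genes took 9.155% and 8.999% in mTEClo and 9.43% and 8.24% in mTEChi (difference -0.672 points, exact permutation p = 0.051). Adjusted over these 3 comparisons (Benjamini-Hochberg), each exact permutation p became 0.051, so none passed 0.05.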

How the data were processed

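Bulk RNA sequencing of sorted mTECs was analysed from the table of counts per Ensembl gene deposited by the authors, with 1 column for each library. Per the labels' protocols, cDNA was primed from total RNA by oligo dT together with not-so-random primers and tagmented by Tn5. Strand is not kept by this, so overlapping and antisense genes cannot be told apart. The submitters' processing notes name HTSeq 0.11.2, STAR 2.7.3a, Picard 2.21.1, fastp 0.20.0, edgeR (no version) and SAMtools 1.9, with the builds GRCm38 and mm10, and give no order of use. Gene positions and GC contents come from GENCODE vM21 (GRCm38).

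The 15 WT libraries were fitted in edgeR 4.0.16 (R 4.3.3) with filterByExpr (minimum count 10), TMM factors, robust quasi-likelihood tests and Benjamini-Hochberg adjustment over all genes tested. The terms were gate, sex and age, or the 4 groups and sex. The GC correction entered each library's lowess trend (span 0.3) of log2 CPM (prior count 2) against GC content, relative to the gate mean, as an offset, fitted on genes above a mean log2 CPM of 3. It was added after the data were seen. CPM are counts relative to the TMM-scaled library size. Single values per library were compared by exact permutation within gates. Gene lists are described by counts and medians, with no set test.

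The members and the 48 lists (891 symbols, all matched, 808 tested) were chosen with earlier results of these data known. Named genes follow a rule of size, p and no overlap between the ages. Some genes with small p after GC correction, list members and the granulocyte list were named after their values were seen. No 2 libraries were identical, and chi-square per degree of freedom within groups was 1.231 to 3.625 over 24 pairs. The sex labels fitted sex-linked genes in 15 of 15 libraries. Replicate numbers are shared between the gates for 7 numbers, with different ages or sexes for some, and deviations of same-numbered libraries correlated at -0.09 to 0.106, so they were not used as pairs. The 8 knockout libraries were not used. Alternatives tried were DESeq2 1.42.0, other scalings, filters, thresholds, covariates, a replicate block and leaving out libraries. The fits over both gates, without and with GC correction, and the uncorrected fit of the deeper mTEClo libraries were tested on simulated data. The contrasts within and between the gates, the corrected fit of the deeper mTEClo libraries and the fits of mTEChi alone were not. For the corrected fit, the simulation put the same GC slope into all libraries of 4 weeks. In the data the shallow mTEClo libraries of 4 weeks sloped the other way, which was not simulated. Some listed or rule-named genes are not reported here.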

Additional observations from a re-analysis of the deposited data

Results flagged for a closer look

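Among the genes whose values are given by library, 60 groups of 5 libraries were checked for a highest or lowest library far from the others, and 4 passed the 95% limit of 0.71 for the gap divided by the range, where chance gives about 1 in 20 groups. Wnt10a was highest in mTEClo replicate 1 of 4 weeks (10.53 CPM, gap over range 0.742), one of the libraries under 2000000 counts. Msmo1 was highest in mTEClo replicate 5 of 4 weeks (31.1 CPM, 0.747), the female library of that group. Camp was lowest in mTEChi replicate 7 of 5 weeks (7.225 CPM, 0.808), and Ngp was highest in mTEChi replicate 5 of 5 weeks (36.24 CPM, 0.843).

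For 4 genes the age effect differed between the gates by the test of the difference itself. The log2 age effect in mTEChi minus that in mTEClo was -4.939 for Camp, -3.337 for S100a8 and -3.125 for S100a9, and 0.807 for the gene model 5330417C22Rik. The size of the Camp value rests on very few counts in mTEClo of 4 weeks. The 5330417C22Rik mean fell from 98.3 to 63.7 CPM in mTEClo and was at 125 and 143 CPM in mTEChi.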

How the results depend on the processing

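For the age effect over both gates (1087 genes called), the count was 169 at an adjusted p under 0.01, 67 with a change above 2-fold required as well, 1639 with no filter on low counts, 264 in male libraries only and 646 without the 4 libraries under 2000000 counts. Upper quartile factors turned the split of calls from 616 higher and 471 lower to 480 and 663. With alternatives chosen after seeing the data, it was 187 with GC correction, 197 with GC correction and a depth term, and 71 with GC correction and without mTEClo replicate 6 of 5 weeks. The corrected count of 187 became 498 with no sex term and 25 in male libraries only. In mTEClo (178) the counts under those thresholds and without the filter were 25, 44 and 657, with 19 in male libraries only, 396 with library total as a covariate, 776 with a depth term and 710 without its 2 shallow libraries. In mTEChi (1334) they were 333 and 193 at the stricter thresholds, 806 in male libraries only and 173 with GC correction. Scaling shifted the mTEChi split from 796 higher and 538 lower to 636 and 661 with RLE factors and 558 and 808 with upper quartile factors. The difference between the gates (4) gave 1 at an adjusted p under 0.01, 9 with upper quartile factors, 202 with no filter, 54 with DESeq2, 2 with no sex term, 9 in male libraries only, 235 with the covariate and 9 with GC correction. The deeper mTEClo libraries (1210) gave 339 and 130 at the stricter thresholds, 1834 with no filter, 367 with DESeq2, 2 with the covariate and 438 with GC correction. The causes were not tested.

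With the replicate number as a block, the replicate block gave 329 genes over both gates (305 higher, 24 lower), 105 with GC correction (82 and 23), 387 in mTEClo and 416 for the difference between the gates. The labels do not say that the numbers pair libraries.

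Leaving out 1 library at a time gave 336 to 1651 calls over both gates, with 340 and 336 without mTEChi replicates 1 and 2 of 4 weeks, 429 without mTEClo replicate 5 of 4 weeks and 1651 without replicate 1. With GC correction the range was 55 to 291, with 64 and 55 without those mTEChi libraries, 81 without mTEClo replicate 5 of 4 weeks, 71, 96 and 91 without mTEClo replicates 6, 7 and 8, and 291 without mTEChi replicate 7. In mTEClo it was 19 (without replicate 5) to 277 (without replicate 1), with 74, 72 and 53 without replicates 6, 7 and 8. In mTEChi it was 41 to 1493, and for the difference between the gates 0 (without mTEChi replicate 1) to 54 (without mTEClo replicate 4). In the deeper mTEClo libraries it was 431 to 2045, with 599 and 732 without replicates 4 and 5 of 4 weeks and 2045, 431 and 583 without replicates 6, 7 and 8, and with GC correction 73 to 1802, with 203 without replicate 4. Where an mTEChi library of 4 weeks is left out, the lone library left is assumed to vary like the other groups.

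Detected genes differed by 245.4 to 423.4 when 1 library was left out, by 190.3 at 3 or more counts and by 3.667 in deeper mTEClo. The mitochondrial share differed by -0.1425 to -0.1185 points, by -0.1431 in male libraries and by 0.02131 in deeper mTEClo. The share of the 100 most counted genes differed by -0.7558 to -0.5466 points, by -1.194 for 500 genes and by 0.4868 in deeper mTEClo. Of 4891 fits of 188 gene results, 3661 were counted as unchanged, 1158 lost the call, 68 gained it and 4 turned. The 4 cover only genes called in the main fit. A change of sign in a gene not called there was counted as unchanged, as for H2-Aa over both gates (-0.316 to 0.333). The turned values were Cfap43 0.143 and Cyp51 0.007 under the replicate block, Cdx1 -0.101 with GC correction and a depth term, and Cyp2d12 0.885 in deeper mTEClo with the covariate.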

Other observations

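Some genes rose although their transcripts are poorer in GC than the median of the genes tested (49.0%), while most rises without correction were in GC-rich genes. Sept11, a septin of the cytoskeleton with 47.8% GC, was at 135 to 147 CPM in mTEClo of 4 weeks and 172 to 180 CPM at 5 weeks, and at 145 and 141 CPM and then 153 to 168 CPM in mTEChi (0.27, SE 0.06, adjusted p = 0.0096, and 0.29, adjusted p = 0.0069 with GC correction). Slc1a3, a glutamate transporter with 45.7% GC, rose by 0.30 (adjusted p = 0.019, and 0.36, adjusted p = 0.0074). Map3k20, a stress-activated kinase with 45.2% GC, rose by 0.26 (adjusted p = 0.02, and 0.32, adjusted p = 0.0087). Lrrc8c, a subunit of volume-regulated anion channels with 45.7% GC, rose by 0.28 (adjusted p = 0.021, and 0.34, adjusted p = 0.012). The ages of Sept11, Map3k20 and Lrrc8c did not overlap in either gate. These 4 were chosen by their p after GC correction, with their values known.

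Foxn1, the master factor of thymic epithelium, was at 57.4, 62.8 and 54.2 CPM in the deeper mTEClo libraries of 4 weeks and at 109, 90.7 and 112 CPM at 5 weeks (0.88, SE 0.10, adjusted p = 0.0002, and 0.73, adjusted p = 0.0023 with GC correction). The shallow mTEClo libraries of 4 weeks had 79.6 and 100 CPM of Foxn1. In the 7 mTEChi libraries fitted alone with GC correction the Foxn1 change was 0.01 (adjusted p = 0.98).

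Replicate 6 of mTEClo at 5 weeks differed from its group in the granulocyte genes it carried. It had 23.3 CPM of Mpo, the myeloperoxidase of neutrophil precursors, against 2.05 and 3.06 CPM in the other two libraries of its group and 1.6 to 3.89 CPM in mTEClo of 4 weeks. It had 28.3 CPM of Prg2, the major basic protein of eosinophils, against 1.71 and 4.28 CPM and 1.04 to 4.54 CPM.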
